A study of Mus musculus with 2 samples.

Results

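Cells of the intestinal epithelium take up long-chain fatty acids at the membrane and carry them through the cytosol on binding proteins, and 7 genes of these steps are described here across epithelial cell types and genotypes. The genes were chosen by symbol, as all rows of the count matrices named Cd36, Fabp1, Fabp2, Slc27a1, Slc27a2, Slc27a4 or Got2, which gave 7 of 32285 genes, each with 1 row. The cells came from 2 groups of mice, both given 2.5% DSS (dextran sulfate sodium, which injures the gut epithelium) and taken on day 7. WT mice were wild-type littermates, and MG53-TG mice carried a transgene for global overexpression of MG53, the protein of the gene Trim72. Each group gave 1 library of cells from isolated intestinal crypts, sorted as EpCAM positive and 7-AAD negative and read with 3′ single-cell chemistry. There was no library without DSS. The study gives several mice per group, but how they were combined into each library, and their age, were not given in the sources used here.

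Dietary fat reaches the enterocyte as free fatty acids and monoglycerides, which are taken up at the brush border, bound in the cytosol, activated to acyl-CoA and rebuilt into triglyceride for chylomicrons. Cd36 encodes a surface receptor that facilitates fatty acid uptake, and Slc27a1, Slc27a2 and Slc27a4 encode FATP1, FATP2 and FATP4, transport proteins that also have acyl-CoA synthetase activity. Fabp1 and Fabp2 encode the liver and the intestinal fatty acid binding proteins, which are both abundant in the cytosol of small-intestinal enterocytes. Got2 encodes mitochondrial aspartate aminotransferase, an enzyme of the malate-aspartate shuttle that has also been described at the plasma membrane as a fatty acid binding protein. Several of these genes, Fabp1 and Cd36 among them, are known targets of PPAR receptors, which bind direct repeats of AGGTCA with 1 base between the repeats.

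All 7 genes are protein coding. In the GENCODE annotation of GRCm38, the build of the files, Fabp1 lies on chromosome 6 from 71199827 to 71205023 on the plus strand, Fabp2 on chromosome 3 from 122895072 to 122899506 on the plus strand and Cd36 on chromosome 5 from 17781690 to 17888801 on the minus strand. Slc27a4 (29802634 to 29817522) and Slc27a2 (126552407 to 126588243) are both on the plus strand of chromosome 2. Chromosome 8 holds Slc27a1 on the plus strand (71568882 to 71587302) and Got2 on the minus strand (95864134 to 95888547).

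RefSeq start sites of GRCm38.p6 were found for all 7 genes, 3 of them for Slc27a1, and the 250 bases before each start were searched on both strands for 2 copies of AGGTCA with 1 base between them. A match with 1 mismatch was present in Fabp1 and a match with 2 mismatches in Cd36, and the other 5 genes had no match with up to 2 mismatches. Among 32851 such windows, 0.484% held a match with up to 1 mismatch and 3.24% a match with up to 2. The windows shown are those of Fabp1 (chr6:71199629-71199878, plus strand), Cd36 (chr5:17835897-17836146, minus strand) and Fabp2 (chr3:122894822-122895071, plus strand). Fabp1 and Fabp2, both abundant, were found in different cell types below, and Fabp1 and Cd36 hold an inexact match to the repeat. Capitals mark the best match, which starts 67 bases before the start site in Fabp1 and 63 bases before it in Cd36, and is on the opposite strand to the gene in both.
Fabp1: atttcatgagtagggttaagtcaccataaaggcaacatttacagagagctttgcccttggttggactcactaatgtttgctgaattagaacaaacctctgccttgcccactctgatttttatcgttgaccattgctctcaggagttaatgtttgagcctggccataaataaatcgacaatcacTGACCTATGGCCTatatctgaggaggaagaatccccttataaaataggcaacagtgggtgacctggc
Cd36: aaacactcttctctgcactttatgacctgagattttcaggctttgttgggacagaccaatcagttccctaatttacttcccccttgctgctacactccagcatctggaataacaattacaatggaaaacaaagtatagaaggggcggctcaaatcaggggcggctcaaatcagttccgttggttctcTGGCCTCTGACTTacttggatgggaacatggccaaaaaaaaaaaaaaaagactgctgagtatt
Fabp2: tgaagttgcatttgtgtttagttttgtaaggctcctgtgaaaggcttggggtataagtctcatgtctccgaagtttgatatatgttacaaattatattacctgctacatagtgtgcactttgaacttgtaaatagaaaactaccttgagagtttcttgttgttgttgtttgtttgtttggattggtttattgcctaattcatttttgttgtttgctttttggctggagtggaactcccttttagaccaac
These letters say nothing of binding in the cells measured here. The windows also held TTTAT, on either strand, 4 times in Fabp1 and 1 time each in Cd36 and Fabp2, with overlapping copies counted once. Of all windows, 37.3% held at least 1 copy. The GC content of the windows was 42.8% in Fabp1, 43.2% in Cd36 and 35.6% in Fabp2, and between 54.4% and 66.4% in the windows of the 4 other genes.

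After filtering, 6963 cells of the WT library and 4941 of the MG53-TG library remained, of which 6125 and 4608 were epithelial. Median depth over the kept cells was 14035 UMIs in WT and 17950 in MG53-TG. Clusters made without the 7 genes and without Trim72 were named from markers, and 9 epithelial types were found in both libraries. Trim72 checked the labels, at 0.593 CPM (UMIs of a gene per 1000000 UMIs) in the WT epithelial sum and 50.8 CPM in the MG53-TG sum. The libraries differed in makeup, since goblet-like cells were 23.6% of epithelial cells in WT and 37.8% in MG53-TG, and absorptive progenitor-like cells were 20.4% and 10.9%. Of the barcodes that passed the limits on UMIs and genes, 33.7% in WT and 46.1% in MG53-TG had over 25% mitochondrial UMIs and were left out. Markers of red cells (4 genes) summed to 305 CPM in the WT epithelium and 0.511 CPM in MG53-TG, and T cell markers (13 genes) to 56.0 and 26.8 CPM. A total of 8 barcodes were kept in both libraries. With 1 library per genotype there was no replicate, so no test between genotypes was possible and each interval below covers counting error only. Each level pools the UMIs of all cells of a type, and since 1 molecule gives 1 UMI at its 3′ end, whatever its length, levels of different genes are set side by side as CPM.

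The 7 genes followed 4 patterns over the cell types. Cd36, Fabp1, Fabp2 and Slc27a2 were highest in enterocyte-like cells, Slc27a4 in ileal enterocyte-like cells, Slc27a1 in tuft-like cells and Got2 in the stem-like and cycling-like cells of the crypt. The highest type of a gene was the same in both libraries, except that stem-like and cycling-like cells, whose intervals overlapped in each library, changed places for Got2. The T cell-like cells of the same libraries should lack Fabp1 and Fabp2, and their level of these was read as the background from RNA of other cells. Their level was also far below the highest type for Cd36, Slc27a2 and Slc27a4. For Slc27a1 and Got2 it is no such background, since for each UMI of Apoa1, an apolipoprotein of enterocytes, T cell-like cells of WT held 0.0343 and 0.114 UMIs of them, and WT barcodes with under 100 UMIs, which hold mostly free RNA, 0.00145 and 0.00592.

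**Figure D1:**
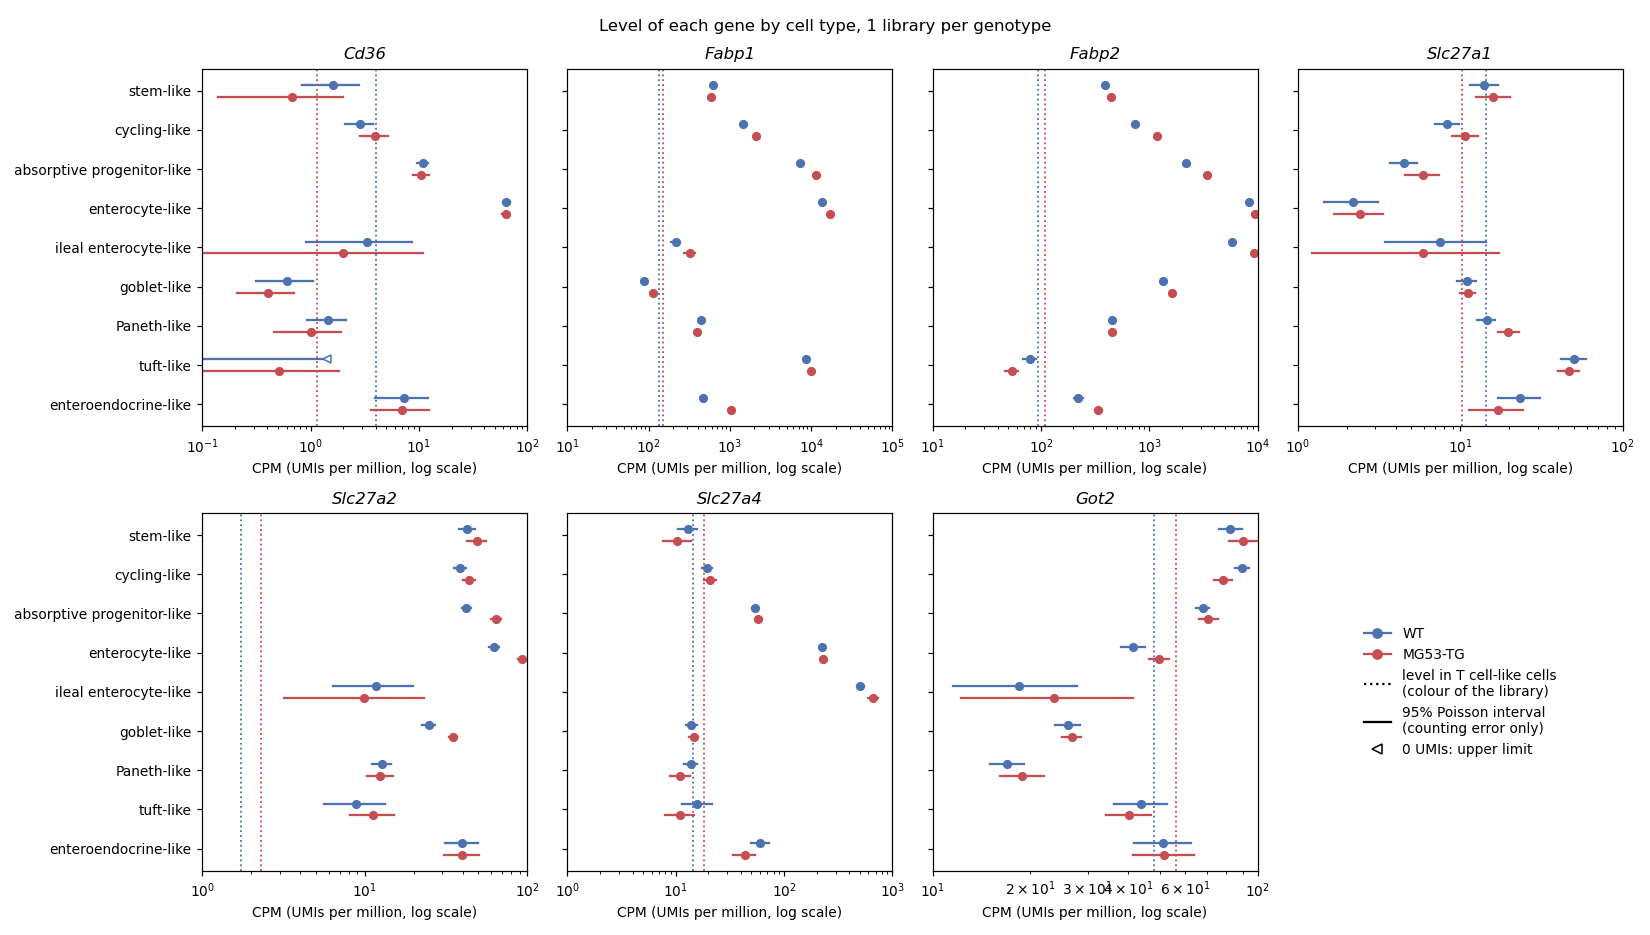
Level of each gene in CPM (log scale) in 9 epithelial types of the WT (blue) and MG53-TG (red) library. Bars are 95% Poisson intervals, drawn down to 0.1 CPM at the least, and dotted lines give the level in T cell-like cells. Fabp1 is high in enterocyte-like, absorptive progenitor-like and tuft-like cells, while Fabp2 is at or below the T cell-like level in tuft-like cells.

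Fabp1 was the most abundant of the 7 genes. In enterocyte-like cells it stood at 13665 CPM in WT (95% Poisson interval 13602 to 13728) and 17291 CPM in MG53-TG (17223 to 17358), or 1.37% and 1.73% of all UMIs. Absorptive progenitor-like cells had 7204 and 11443 CPM. Tuft-like cells, chemosensory cells that are not counted among the absorptive cells, held 8710 CPM in WT versus 10052 CPM in MG53-TG, above the absorptive progenitor-like level in WT and below it in MG53-TG. Cycling-like cells had 1463 and 2085 CPM, stem-like cells 623 and 582 CPM, and Paneth-like cells 438 and 394 CPM. The Paneth-like level rested in large part on few cells, since 5 cells held 45.0% of its UMIs in WT and 84.7% in MG53-TG. The median Paneth-like cell had 55.4 and 48.6 CPM. After thinning to equal UMIs per cell, 15.2% and 11.4% of Paneth-like cells held Fabp1, against 15.9% and 14.6% of T cell-like cells. Goblet-like cells were at 87.6 and 114 CPM, below the T cell-like cells at 134 and 151 CPM, and were read as background.

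Fabp2 shared the enterocyte-like peak but not the rest of this order. It was at 8379 CPM in WT (8330 to 8428) and 9556 CPM in MG53-TG (9505 to 9606) in enterocyte-like cells. Ileal enterocyte-like cells, led by Saa1 and by the bile acid transporter gene Slc10a2, came next at 5851 and 9182 CPM. Goblet-like cells held 1334 and 1624 CPM, more than cycling-like cells at 732 and 1172 CPM. Tuft-like cells had only 79.3 CPM in WT versus 54.2 CPM in MG53-TG, against 93.8 and 109 CPM in T cell-like cells.

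The measured ratio of Fabp1 to Fabp2 therefore changed over the types by several orders of magnitude. It was 110 in tuft-like cells of WT (95% interval 95.8 to 127) and 186 in those of MG53-TG (162 to 213). It was 0.0369 and 0.0353 in ileal enterocyte-like cells, and 0.0657 and 0.0704 in goblet-like cells. Enterocyte-like cells lay between them, at 1.63 and 1.81. At the ends, Fabp2 in tuft-like cells and Fabp1 in goblet-like cells were below the T cell-like level. Those ratios thus rest on a level read as background, which their intervals do not cover. Fabp1 in ileal enterocyte-like cells was at 216 and 324 CPM, against 134 and 151 CPM in T cell-like cells. In MG53-TG, 5 of these ileal cells held 56.1% of its UMIs. Over the 18 points of 9 types and 2 libraries, the Pearson correlation of log2(CPM + 1) was 0.02 for Fabp1 with Fabp2, 0.76 for Fabp2 with Slc27a4 and -0.94 for Fabp2 with Slc27a1, given as a description because the points share libraries.

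**Figure D2:**
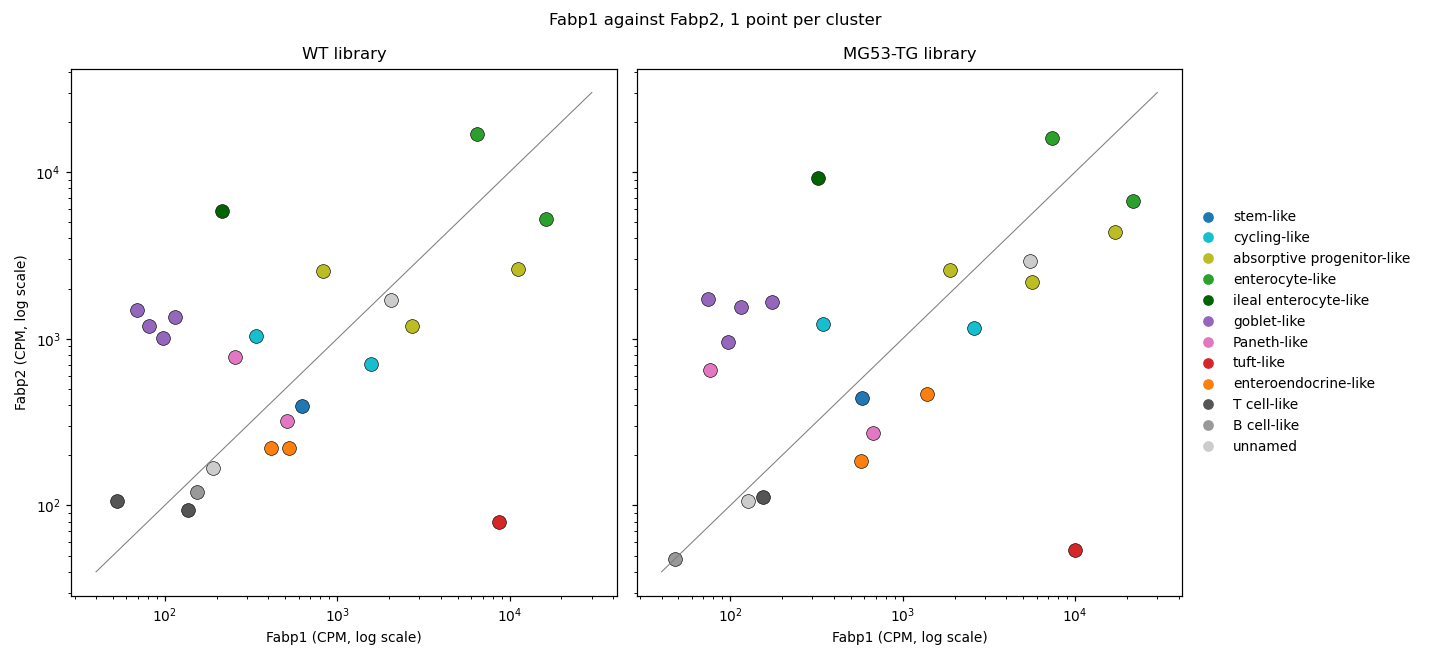
Fabp1 (horizontal axis) against Fabp2 (vertical axis) in CPM (log scales), 1 point per cluster, coloured by its cell type, with the WT library on the left and the MG53-TG library on the right. The line marks equal levels. The tuft-like cluster lies far below the line, at 8710 CPM of Fabp1 and 79.3 CPM of Fabp2 in WT, and the ileal enterocyte-like and goblet-like clusters lie far above it.

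Within the enterocyte-like cells the 2 binding proteins were split between 2 clusters. Cluster 4, led by Sult6b2, Gsta1 and Adh6a, held 16325 CPM of Fabp1 and 5201 CPM of Fabp2 in WT, and 21587 and 6729 CPM in MG53-TG. Cluster 5, led by Plb1, Enpp7 and Slc34a2, held 6436 CPM of Fabp1 and 17017 CPM of Fabp2 in WT, and 7351 and 16095 CPM in MG53-TG. So Fabp1 was higher in cluster 4 and Fabp2 in cluster 5 in each library. Cluster 5 was shallower, with medians of 4427 (WT) and 7288 UMIs (MG53-TG), compared with 19079 and 23029 UMIs in cluster 4, and its median mitochondrial share was 11.9% and 14.3% against 8.70% and 8.48%. The part of depth and of mitochondrial share in this split was not tested.

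Fabp1 in tuft-like cells was set beside Apoa1, in these cells and in free RNA. Barcodes with under 100 UMIs, which hold mostly free RNA, were available for WT only, and the part of free RNA was not tested. The tuft-like cluster held all 11 markers of its list above the other epithelial cells in both libraries, among them Dclk1 at 1746 CPM in WT versus 1666 CPM in MG53-TG against 2.01 and 0.871 CPM elsewhere in the epithelium. Apoa1 was at 258 and 168 CPM there, below the T cell-like level of 422 and 297 CPM. For each UMI of Apoa1 the tuft-like cells had 33.8 UMIs of Fabp1 in WT and 59.7 in MG53-TG, while T cell-like cells had 0.317 and 0.510, and the WT barcodes with under 100 UMIs had 0.381. T cell markers (13 genes) summed to 614 and 277 CPM in tuft-like cells. Ptprc, which tuft cells are known to express, had 215 and 267 CPM of this, and Gzma and Ccl5, genes of T cells, had 188 and 132 CPM in WT but 4.09 and 2.55 CPM in MG53-TG. The 10 other markers were at 19.2 CPM or less. The part of T cell RNA in the tuft-like levels was not tested. For Fabp2 in goblet-like cells the same ratio was 7.18 in WT and 11.0 in MG53-TG, while it was 0.264 in the barcodes of under 100 UMIs.

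The spread over cells was wide for Fabp1 in tuft-like cells and narrower for Fabp2 in goblet-like cells. Among tuft-like cells of WT the 10th percentile was 105 CPM, the median 4990 CPM and the 90th percentile 26462 CPM, and in MG53-TG these were 0, 6158 and 24569 CPM. Over 1000 CPM were reached by 70.0% of the WT and 66.4% of the MG53-TG cells of this type. For Fabp2 in goblet-like cells the median was 1202 CPM in WT versus 1523 CPM in MG53-TG, with 90th percentiles of 2146 and 2529 CPM. After thinning every cell to the same number of UMIs, 78.3% of tuft-like cells of WT and 75.7% of those of MG53-TG held a UMI of Fabp1, against 15.9% and 14.6% of T cell-like cells. The thinned share of goblet-like cells with Fabp1 was 11.1% and 12.6%, at or below the T cell-like share, whereas the share with Fabp2 was 73.8% and 80.5%, against 11.4% and 8.41%. Before thinning these shares were 91.3% and 89.3% for Fabp1 in tuft-like cells, 52.4% and 60.8% for Fabp1 and 95.8% and 97.2% for Fabp2 in goblet-like cells, and between 25.5% and 33.6% in T cell-like cells. Median depths were 10737 and 14026 UMIs in tuft-like, 14369 and 17899 UMIs in goblet-like and 2878 and 3589 UMIs in T cell-like cells, and no cell was too shallow for thinning.

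**Figure D3:**
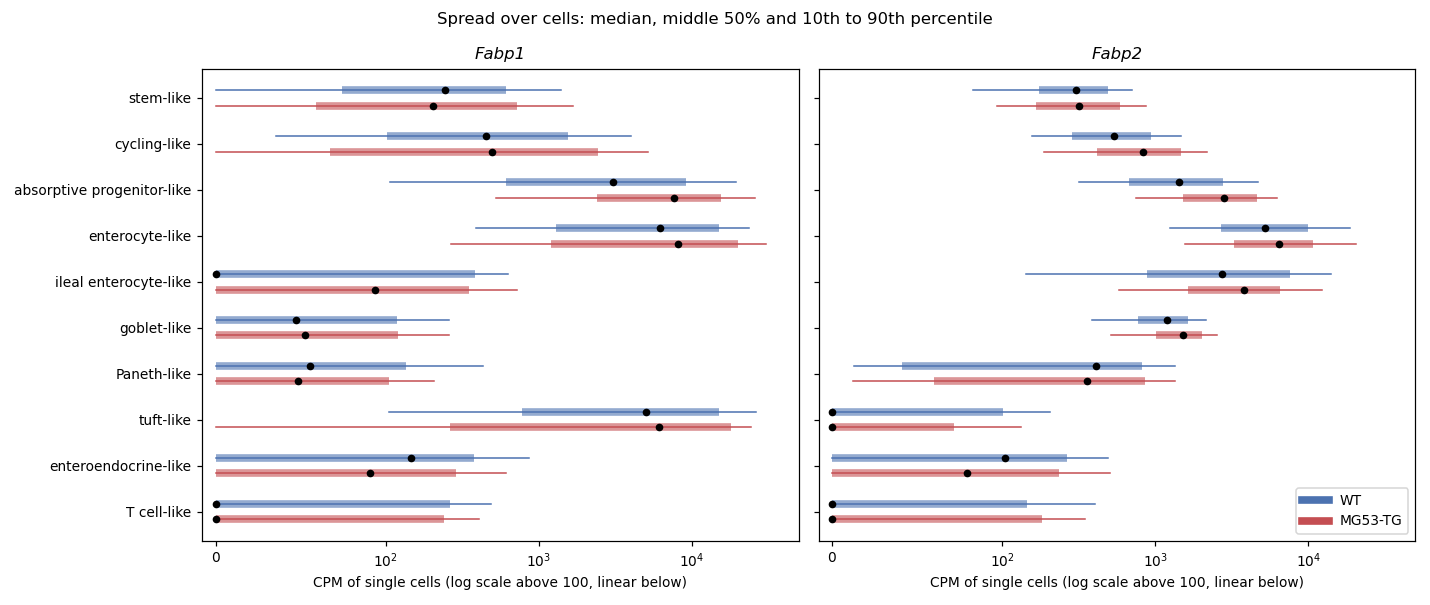
Level of Fabp1 (left) and Fabp2 (right) in single cells, in CPM (log scale above 100, linear below), for WT (blue) and MG53-TG (red). Points are medians, thick bars the middle 50% of cells and thin lines the 10th to 90th percentile. The medians of absorptive progenitor-like cells, 3067 CPM of Fabp1 in WT and 7700 CPM in MG53-TG, lie apart from each other, while those of goblet-like cells are near 0 for Fabp1 in both libraries.

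Cd36 was a gene of enterocyte-like cells. It stood at 64.2 CPM in WT (59.9 to 68.6) and 63.1 CPM in MG53-TG (59.1 to 67.3), and next came absorptive progenitor-like cells with 10.8 and 10.5 CPM. Every other type was at 7.24 CPM or less, and ileal enterocyte-like cells had 4 UMIs in the WT library and 1 in the other. In tuft-like cells no UMI was found in WT and 2 in MG53-TG. Of all epithelial UMIs of Cd36, 67.6% in WT and 77.5% in MG53-TG came from enterocyte-like cells, which gave 12.5% and 16.2% of all UMIs.

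The 3 transport proteins were each highest in a different type. Slc27a4 reached 507 CPM in WT (467 to 549) and 661 CPM in MG53-TG (592 to 736) in ileal enterocyte-like cells, 223 and 229 CPM in enterocyte-like cells and 53.6 and 58.0 CPM in absorptive progenitor-like cells. Enteroendocrine-like cells were at 60.5 and 43.4 CPM, and their intervals overlapped those of absorptive progenitor-like cells in both libraries. Within the enterocyte-like type, Slc27a4 was at 140 and 160 CPM in cluster 4. In cluster 5 it was at 450 CPM in WT (428 to 472) and 388 CPM in MG53-TG (370 to 407). The cluster 5 interval thus overlapped that of ileal enterocyte-like cells in WT and lay below it in MG53-TG. Slc27a2 was at 62.4 CPM in WT versus 92.4 CPM in MG53-TG in enterocyte-like cells, and spread over the crypt too, with 42.6 and 48.8 CPM in stem-like cells and 38.6 and 43.7 CPM in cycling-like cells. Slc27a1 was low, and lowest in the enterocyte-like cells at 2.18 and 2.4 CPM. It was highest in tuft-like cells at 50.03 CPM in WT (41.8 to 59.4) and 46.5 CPM in MG53-TG (40.0 to 53.8), 22.9 and 19.3 times the enterocyte-like level. T cell-like cells held 14.5 and 10.3 CPM of Slc27a1, and the levels of goblet-like, cycling-like and stem-like cells lay around these, between 8.33 and 16.0 CPM. Among Slc27a4 values, those of stem-like, goblet-like, Paneth-like and tuft-like cells lay between 10.4 and 15.8 CPM, beside 14.5 and 18.3 CPM in T cell-like cells.

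Got2 varied least between types. Cycling-like cells had 89.8 CPM in WT versus 78.2 CPM in MG53-TG, and stem-like cells 82.5 and 90.5 CPM. Absorptive progenitor-like cells followed at 67.8 and 70.5 CPM. Paneth-like cells were lowest at 16.99 and 18.9 CPM, so the highest type was 5.28 times the lowest in WT and 4.79 times in MG53-TG. T cell-like cells, with 48.0 and 56.2 CPM, were near enterocyte-like cells at 41.3 and 49.8 CPM, and the Got2 pattern was thus not one of absorptive cells.

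Genes with the most similar pattern were sought among 5686 genes over the same 18 points. For Fabp1 these included Emc9 and Cbr1, with Pearson correlations of 0.89 and 0.87, the lowest of the 7 genes. For Fabp2 they were Slc6a20a, Mgam2-ps and Ly6g2 (0.95 to 0.96), and for Cd36 they were Maob, Pbld2 and Sult6b2 (0.93 to 0.95). Slc27a4 was most like Ifit1bl2, Slc13a1 and Slc13a2, all at 0.98. Slc27a2 was most like Prdx1, Cth and Pon2 (0.90 to 0.92), Slc27a1 like Stra6l (0.95) and Cd24a (0.94) and Got2 like Thoc7, Naa20 and Cct6a (0.97 to 0.98).

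The comparison of the genotypes addressed whether fatty acid uptake and binding genes differ in DSS-treated epithelium that overexpresses MG53. In the sum over all epithelial cells, 6 of the 7 genes were higher in the MG53-TG library. The share of all genes that were higher was not taken, so this count of 6 cannot be weighed. None of the 7 was past 1.5-fold. Of the 7405 genes with a mean of at least 10 CPM, 3.55% were past it in either direction. Fabp2 went from 2120 to 2901 CPM, a log2 ratio of 0.45 (95% interval 0.44 to 0.46). Slc27a2 went from 34.8 to 47.4 CPM, a log2 ratio of 0.44 (0.38 to 0.51), and Fabp1 from 3985 to 5342 CPM, a log2 ratio of 0.42 (0.42 to 0.43). Slc27a1 had 0.22, Cd36 0.15, Slc27a4 0.10 and Got2 -0.13. With the cell types weighted equally, Cd36 had -0.05 and Got2 0.04, so their signs turned. The median of the 7 was 0.22, beside a median of 0.10 over all 7405 genes. The sums include cluster 13, an epithelial cluster of 122 WT and 86 MG53-TG cells that met no cell type name, in which Fabp1 was at 2046 and 5458 CPM.

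**Figure D4:**
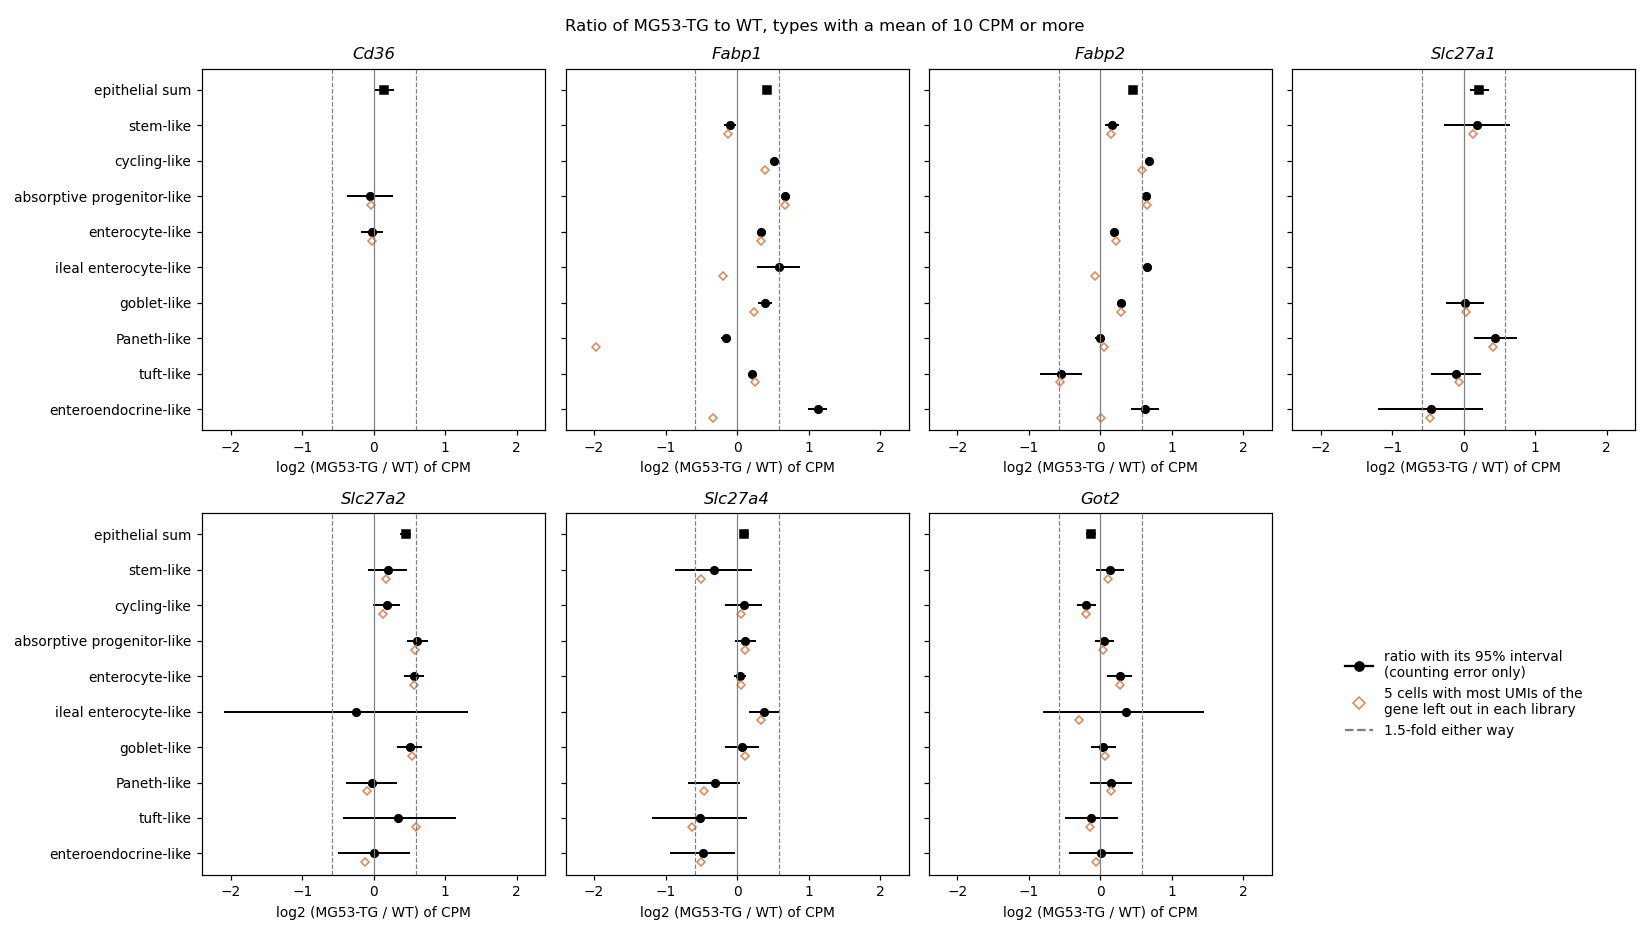
Log2 ratio of MG53-TG to WT in the epithelial sum (squares) and by cell type (circles) for each gene, where the mean of both libraries was at least 10 CPM. Lines are 95% intervals for counting error, diamonds give the ratio without the 5 cells of each library with most UMIs of the gene, and dashed lines mark 1.5-fold. Fabp1, Fabp2 and Slc27a2 lie near the dashed line in absorptive progenitor-like cells with and without those cells, while the enteroendocrine-like circle of Fabp1 at 1.13 moves to -0.34.

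The libraries differed in their cell types, so the epithelial difference was recomputed with the type shares or the levels of 1 library put in place of the other's. With the levels of MG53-TG and the type shares of WT, the log2 ratio was 0.50 for Fabp1, 0.37 for Fabp2 and 0.45 for Slc27a2, and with the shares of MG53-TG and the levels of WT it was -0.02, 0.14 and -0.02. For Cd36 the order was the other way round, with -0.0015 from levels and 0.15 from shares. The lower sum of Got2 also came with the shares (-0.15) and not the levels (0.02).

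**Figure D5:**
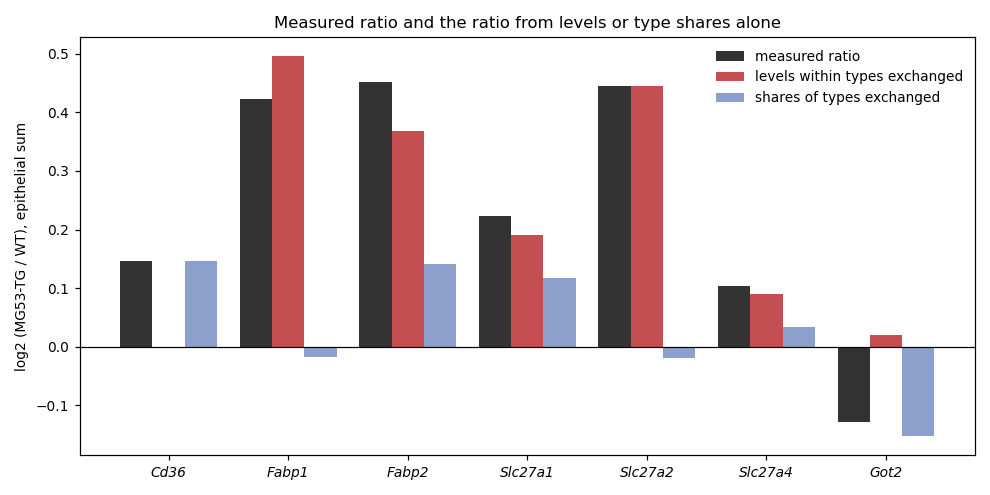
Bars give the log2 ratio of MG53-TG to WT of the epithelial sum for each gene as measured (black), with only the levels within types exchanged (red) and with only the shares of types exchanged (blue), on a log2 axis. For Fabp1 and Slc27a2 the red bar is about as high as the black or higher and the blue bar is near 0, and for Cd36 the blue bar equals the black bar at 0.15.

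Absorptive progenitor-like cells had 3 genes past 1.5-fold, of the 6 with a mean of at least 10 CPM, against 1.86% of all genes there. Fabp1 had a log2 ratio of 0.67 (0.66 to 0.68), Fabp2 of 0.64 (0.62 to 0.66), from 2187 to 3408 CPM, and Slc27a2 of 0.61 (0.47 to 0.74), from 42.2 to 64.4 CPM. Of the cells of this type 68.5% (WT) and 85.2% (MG53-TG) were over 1000 CPM of Fabp1, and without the 5 highest cells of each library the ratios were 0.66, 0.65 and 0.58, the last just inside 1.5-fold. With scaling by the median of ratios they were 0.60, 0.58 and 0.55, so only Fabp1 was past 1.5-fold there. That was fewer genes than in enteroendocrine-like cells, whose genes past it rested on few cells, as given below. The type was made of 3 clusters, and Fabp1 was higher in MG53-TG in each, with log2 ratios of 0.61 in cluster 1, 1.05 in cluster 2 and 1.19 in cluster 20. Fabp2 had 0.74 and 0.87 in clusters 1 and 2, and 0.01 in cluster 20, whose leading gene was Fabp6. In cluster 2 Slc27a4 also had 0.55 (0.24 to 0.85), beside 0.09 in cluster 1. Cd36 (-0.05) and Got2 (0.06) had intervals that included 0, and Slc27a4 had 0.11 (-0.02 to 0.25). Red cell markers summed to 1276 CPM in the WT cells of this type and 0.241 CPM in those of MG53-TG. In WT 5 of 1249 cells had over 1% of their UMIs in these genes, and the log2 ratio of Fabp1 without these cells was 0.67.

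Enterocyte-like cells had none of 6 genes past 1.5-fold, against 2.27% of all genes. Slc27a2 came nearest, with a log2 ratio of 0.57 (0.44 to 0.69), and Fabp1 had 0.34 (0.33 to 0.35). Got2 had 0.27 (0.11 to 0.43) and Fabp2 0.19 (0.18 to 0.20), while Cd36 had -0.02 (-0.16 to 0.11) and Slc27a4 0.04 (-0.03 to 0.11). The 2 clusters of the type differed, and the ratios of all 5 uptake and binding genes above 10 CPM were larger in cluster 4. There Slc27a2 had 0.69, Fabp1 0.40, Fabp2 0.37, Cd36 0.21 and Slc27a4 0.20, and in cluster 5 they had 0.15, 0.19, -0.08, -0.45 and -0.21.

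Cycling-like cells had 1 of 5 genes past 1.5-fold, against 2.99% of all genes. This was Fabp2, with a log2 ratio of 0.68 (0.64 to 0.71) and 0.59 without the 5 highest cells. Fabp1 had 0.51 (0.49 to 0.54) and 0.39 without those cells. Cluster 9, the larger of its 2 clusters, had 0.73 for Fabp1 and 0.71 for Fabp2, and cluster 21, which also held secretory progenitor markers, had 0.03 (-0.14 to 0.19) and 0.25 (0.16 to 0.34). Stem-like cells had 0 of 6, against 2.63%, with Fabp2 at 0.16 (0.08 to 0.24). Fabp1 had -0.10 (-0.17 to -0.03), but 0.47 at a clustering resolution of 0.5, 0.41 without doublet removal and 0.19 with the 7 genes used in the clustering.

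Ileal enterocyte-like cells had 1 of 5 genes past 1.5-fold, in a type with 279 and 100 cells where 27.9% of all genes were past it. This was Fabp2 at 0.65 (0.60 to 0.70), but 5 cells held 53.8% of its UMIs in MG53-TG and the ratio without the 5 highest cells of each library was -0.07. Slc27a4 had 0.38 (0.19 to 0.58), and 0.34 without its 5 highest cells.

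In the secretory types, goblet-like cells had 0 of 6 genes past 1.5-fold, against 0.94% of all genes. Slc27a2 had a log2 ratio of 0.50 (0.34 to 0.66), from 24.7 to 35.0 CPM, and Fabp2 of 0.28 (0.26 to 0.31). Slc27a2 was higher in MG53-TG in all 4 goblet-like clusters, with log2 ratios of 0.36 to 0.77, of which the highest had an interval reaching -0.38. Tuft-like cells had 0 of 6, against 5.43%, with Fabp1 at 0.21 (0.18 to 0.23) and Slc27a1 at -0.11 (-0.44 to 0.23). Fabp2 had -0.55 there, but both levels were below the T cell-like level and the ratio was 0.17 without doublet removal. Paneth-like cells had 0 of 6, against 8.86%. All genes of Paneth-like cells had a median log2 ratio of 0.26, and relative to it Fabp1 had -0.42 and Slc27a1 0.18. In MG53-TG, 5 Paneth-like cells held 84.7% of the Fabp1 UMIs, and the unadjusted log2 ratio of -0.15 became -1.97 without the 5 highest cells and 0.40 at a clustering resolution of 2. The 2 Paneth-like clusters differed too, with 0.41 in cluster 0 and -1.75 in cluster 12.

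Enteroendocrine-like cells had 2 of 6 genes past 1.5-fold, against 9.31% of all genes, and both rested on few cells. Fabp1 went from 469 to 1023 CPM, a log2 ratio of 1.13 (1.01 to 1.24), but 5 cells held 49.1% of its UMIs in WT and 82.2% in MG53-TG. Without the 5 highest cells the log2 ratio was -0.34, and without doublet removal it was -0.21. The median cell had 145 CPM in WT versus 90.7 CPM in MG53-TG. Fabp2 had 0.62 (0.44 to 0.80), and 0.01 without the 5 highest cells. Slc27a4 had -0.48 (-0.92 to -0.05), and -0.50 without them.

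Averages over single cells gave other signs for Cd36 and Slc27a4. The mean of the single-cell levels, in which a shallow cell counts as much as a deep one, had a log2 ratio of -0.23 for Cd36 and -0.15 for Slc27a4, both above 0 in the sum, and of 0.29, 0.21 and 0.31 for Fabp1, Fabp2 and Slc27a2. The barcodes with over 25% mitochondrial UMIs, left out above, also went their own way. On UMIs of nuclear genes they held 111 CPM (WT) and 100.2 CPM (MG53-TG) of Cd36 and 502 and 582 CPM of Slc27a4, each above 12.4 and 13.3 CPM of Cd36 and 61.0 and 64.7 CPM of Slc27a4 in the barcodes within the limit. Fabp1 and Fabp2 were lower in MG53-TG in the barcodes over the limit, with log2 ratios of -0.32 (-0.34 to -0.30) and -0.38 (-0.40 to -0.36). The sign was opposite to that of the epithelial sum. When the limit was set at 50%, every cluster with a median mitochondrial share over 25% was named enterocyte-like. The barcodes within the limit held all cell types, so the sets compared here differ in makeup. The part of makeup in these differences was not tested, and the type shares above hold only within the limit.

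Around the 7 genes, 7 lists of the same pathway were counted in the epithelial sum. Of the 7405 genes with a mean of at least 10 CPM there, 3.55% were past 1.5-fold in either direction. Of 10 other fatty acid transport proteins and surface receptors only 1 reached a mean of 10 CPM, Ffar4, a receptor for long-chain fatty acids. It was past 1.5-fold with 9.003 CPM in WT versus 14.7 CPM in MG53-TG. In goblet-like cells, 23.6% of epithelial cells in WT and 37.8% in MG53-TG, its log2 ratio was 0.07. Of 10 other binding proteins 5 reached this mean and 1 was past the fold. This was Fabp6, the ileal bile acid binding protein, with 342 and 140 CPM. Acbd3, an acyl-CoA binding protein of the Golgi, was highest with a log2 ratio of 0.37. Ileal enterocyte-like cells, 4.56% and 2.17% of epithelial cells, had 6479 and 4819 CPM of Fabp6, from 7733 and 2441 UMIs. Cluster 20 of the absorptive progenitor-like cells held more, with 7322 and 5894 CPM from 24858 and 6846 UMIs. The part of cell type shares in the Ffar4 and Fabp6 differences was not tested. Fabp5, chosen here after its values were seen, was at 3143 CPM in WT versus 3023 CPM in MG53-TG in enteroendocrine-like cells and at most 42.2 CPM in any other type, so it was the most abundant Fabp gene of that type. Of 7 acyl-CoA synthetases 4 were counted and 0 were past the fold, with Acsl5 highest at 0.39 (173 to 225 CPM) and Acsl3 lowest at -0.13.

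All 15 genes of triglyceride resynthesis and chylomicron assembly were counted and 0 were past the fold. Of them 11 were above 0, a count not weighed against all genes. Their median was 0.13, beside 0.10 over all genes. Apoc3, an apolipoprotein of chylomicrons, was highest at 0.38 and Agpat2, an acyltransferase, lowest at -0.09. Of 15 genes of fatty acid oxidation 14 were counted and 0 were past the fold, with a median of 0.07. Hadha, of the mitochondrial trifunctional protein, was highest at 0.28 and Acads, a short-chain dehydrogenase, lowest at -0.14. Of 9 PPAR receptors and partners 8 were counted and 0 were past the fold, with Ppard highest at 0.35 and Ppara lowest at -0.19. Ppara was at 17.2 CPM in WT versus 17.8 CPM in MG53-TG in enterocyte-like cells, and at 5.25 and 5.92 CPM in goblet-like cells. It was lower in MG53-TG in stem-like (13.4 and 11.5 CPM), cycling-like (16.8 and 14.8 CPM) and ileal enterocyte-like cells (12.6 and 7.90 CPM). Tuft-like cells had 3.08 and 2.30 CPM, Paneth-like cells 3.41 and 2.59 CPM and enteroendocrine-like cells 11.9 and 14.1 CPM. The part of cell type shares in the Ppara difference was not tested. Of the 7 genes of the malate-aspartate shuttle beside Got2 all were counted, with ratios between -0.08 for Slc25a13 and 0.10 for Slc25a11. In absorptive progenitor-like cells Ppara was at 27.7 CPM in WT versus 31.1 CPM in MG53-TG, Cpt1a at 116 and 124 CPM and Fabp6 at 1042 and 558 CPM. Pparg was highest in tuft-like cells, at 31.2 and 26.8 CPM.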

How the data were processed

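Single-cell RNA-seq of sorted intestinal epithelial cells was available as 1 library per genotype. The values deposited by the authors were raw counts, each the number of unique molecular identifiers (UMIs) of a gene in a barcode, with mm10 as the genome build. Per the file headers, WT was made with Cell Ranger 4, and its table held all 2005718 barcodes. MG53-TG was made with Cell Ranger 6.0.1, and its table held 12361 barcodes with at least 500 UMIs. Version and barcode list therefore cannot be told apart from genotype. The submitters' processing notes name Seurat. Strand use and the handling of reads that map to several genes were not given in the sources used here.

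Barcodes were used if they reached 1354 UMIs and 200 genes and had no more than 25% of UMIs from mitochondrial genes. The gene minimum and the mitochondrial limit are those of the study, whose UMI minimum was lower. Scrublet (in scanpy 1.11.5) marked 1 WT and 2 MG53-TG cells as doublets, too few to be of use, so cells were removed in the order of their scores, at a rate of 0.8% per 1000 cells, 438 in WT and 212 in MG53-TG. The remaining cells were clustered together (2000 variable genes without the 7 genes and Trim72, 30 principal components, 15 neighbours, Leiden at resolution 1) and named from fixed marker lists, with at least 3 markers detected in 10% of cells at 1.5 times the level elsewhere. The criterion that left cluster 13 unnamed was added after the clusters had been seen, and names may differ from those of the study.

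UMIs were summed over the cells of each type and divided by all UMIs of these cells to give CPM. Levels have exact Poisson, shares Clopper-Pearson and ratios exact conditional binomial intervals at 95% (scipy 1.17.1, numpy 2.4.6). Only the ratio intervals were checked, on counts simulated with counting error alone, so the check says nothing of the spread between cells. Ratios were read where the mean of both libraries was at least 10 CPM, and a 1.5-fold difference was the mark for counts of genes. For shares of cells with a UMI, each cell was thinned to 1354 UMIs. No test between genotypes was made, since cells are not replicates. The 7 genes and the pathway lists were chosen with earlier results of these data known. Of each list the genes with the highest and lowest epithelial ratio were named, and for each of the 7 genes the 3 genes with the highest correlation, among those reaching 50 CPM. Some genes named by this rule are not reported here. The PPAR receptors, Cpt1a and Fabp6 were named as genes shared with related subjects. Promoter sequences are from RefSeq (GRCm38.p6). Alternatives changed the scaling, filters, doublet removal, clustering, weighting of types, free RNA and fold. Leaving out shared barcodes, cells with red cell genes or the 5 highest cells, and naming cluster 13 as goblet-like, were chosen after seeing the data.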

Additional observations from a re-analysis of the deposited data

Results flagged for a closer look

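Pairs of cell types in which the intervals of the genotype ratio excluded 0 in opposite directions were singled out for 4 genes. Their differences were not tested, because each type had 1 library per genotype. Fabp1 had a log2 ratio of MG53-TG over WT of 1.13 in enteroendocrine-like cells and -0.15 in Paneth-like cells. In both types 5 cells held most of the MG53-TG UMIs of Fabp1, at 82.2% and 84.7%. Fabp2 had 0.68 in cycling-like cells and -0.55 in tuft-like cells, where its level was below that of T cell-like cells. Slc27a4 had 0.38 in ileal enterocyte-like cells and -0.48 in enteroendocrine-like cells, from 117 UMIs in WT and 74 in MG53-TG. Got2 had 0.27 in enterocyte-like cells and -0.20 in cycling-like cells.

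The barcodes with over 25% mitochondrial UMIs, which no comparison of cell types used, also held a difference for 2 transport proteins. Slc27a2 had a log2 ratio of 0.28 (0.17 to 0.40) there, from 100.1 to 122 CPM of nuclear UMIs. Slc27a4 had 0.21 (0.16 to 0.27), from 502 to 582 CPM.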

How the results depend on the processing

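No paired analysis was possible because each genotype had 1 library, and for the same reason no replicate could be left out. Log2 ratios of the epithelial sum were recomputed under 9 or 10 alternatives for each gene. Those of Fabp1, Fabp2, Slc27a1 and Slc27a2 stayed above 0 in all of them. Scaling by the median of ratios gave 0.33 for Fabp1, 0.36 for Fabp2, 0.35 for Slc27a2, 0.0080 for Slc27a4 and -0.22 for Got2. The mean of single-cell CPM gave -0.23 for Cd36, 0.29 for Fabp1, 0.21 for Fabp2, 0.31 for Slc27a2 and -0.15 for Slc27a4. Equal weights for the types gave -0.048 for Cd36, 0.40 for Fabp1, 0.42 for Fabp2, 0.00010 for Slc27a1, 0.33 for Slc27a2, 0.20 for Slc27a4 and 0.040 for Got2. With the T cell-like level subtracted, Cd36 had 0.62, Fabp1 0.43, Fabp2 0.46 and Slc27a4 0.014, and Slc27a1 and Got2 had too little left for a value. The T cell-like level of Cd36 was 7 UMIs in WT and 1 UMI in MG53-TG, so its value of 0.62 rests on few molecules. A mitochondrial limit of 50% gave 0.32 for Fabp1, 0.33 for Fabp2 and 0.44 for Slc27a4, and a limit of 10% gave 0.49 for Fabp1 and -0.13 for Slc27a4. Without doublet removal Fabp1 had 0.44, and with a minimum of 500 UMIs Fabp2 had 0.44. A total of 3 genes were more than 25% higher in MG53-TG, and 0 were past 1.5-fold or 2-fold. The share of all genes was 3.55% at 1.5-fold and was not taken at the other marks, so the count of 3 cannot be weighed. By cell type, Fabp1 in enteroendocrine-like cells went from 1.13 to -0.21 without doublet removal and to -0.34 without the 5 highest cells, and Fabp2 in ileal enterocyte-like cells to -0.070 without the 5 highest cells. Counting cluster 13 as goblet-like moved Fabp1 there to 0.68 and Fabp2 to 0.32. In absorptive progenitor-like cells the range over 8 alternatives was 0.60 to 0.71 for Fabp1, 0.58 to 0.76 for Fabp2 and 0.55 to 0.71 for Slc27a2. Leaving out cells with red cell genes or shared barcodes moved no ratio beyond its interval. The cause of the other moves was not tested. Depth limited Cd36 and Slc27a1, with 1262 and 1050 epithelial UMIs in WT.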

Other observations

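Acyl-CoA synthetases, which act after uptake, were also divided between cell types, and the genes named here were chosen after their values were seen. Acsl5 was highest in enterocyte-like cells, at 694 CPM in WT versus 847 CPM in MG53-TG. Acsl4 was highest in tuft-like cells, at 69.7 and 63.4 CPM, and at most 19.4 CPM in every other epithelial type. Acsl1 was highest in enteroendocrine-like cells, at 82.7 and 160 CPM. Tuft-like cells thus held the highest epithelial level of Slc27a1, Acsl4 and Pparg in both libraries.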
